A study of Homo sapiens with 33 samples.

Results

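Transcripts of 10 integrin subunits carried by monocytes were followed in THP-1 cells treated with retinoic acid (RA), tumor necrosis factor (TNF) or both: ITGB2, ITGAL, ITGAM, ITGAX, ITGB1, ITGA1, ITGA5, ITGA6, ITGA4 and ITGB7. They were taken as a named list, with no threshold on any measured value, but with earlier results of these data known. Because of that choice, counts of members set beside shares of all genes below describe the list and do not test it. The members are 10 of 19775 genes and 27 of 41091 probe sets with a single gene symbol on the array. Each gene is described by its brightest probe set over all arrays, and the other probe sets are compared with it at the end. All 10 genes passed the filter on dim probe sets, but ITGA1 passed only through the RA plus TNF wells. Its mean over the 40 h arrays was 3.1 times the array median, and 0.825 times without the RA plus TNF wells, where the filter stood at 0.882.

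THP-1 is a line grown from a human acute monocytic leukaemia, and each of the 33 arrays (Affymetrix HG-U133 Plus 2) held RNA from a separate culture well. Of the wells harvested at 40 h, 5 had received both RA and TNF, 5 RA alone, 5 TNF alone and 6 the vehicle, 0.1% ethanol. RA was given at 20 nM at the start and again after 16 h, and TNF at 5 ng per ml for the last 24 h. The time course had 2 wells at 2 h after 20 nM RA, 2 at 6 h, 3 at 16 h and 2 at 40 h, with 8 vehicle wells, of which 5 were harvested at 16 h and 3 at 40 h. The titles call these 8 wells a 0 h control, while their treatment notes give the harvest times used here. The 2 RA wells and 3 vehicle wells of that series at 40 h also belong to the 40 h groups, and the comparisons of all treated 40 h groups with vehicle share the same 6 vehicle wells. Wells of 1 cell line were the replicates, so the p-values measure the spread between wells.

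The record numbers of the arrays, given in the labels, fall into 2 blocks: 12 arrays are called array set 1 below and the other 21 array set 2. Each 40 h group had 3 arrays in set 1, and set 2 held 3 arrays of the vehicle, 2 of each treated group and all the other time-course arrays. Values are deposited as log2 of a probe set's signal over its array's median, and levels below are multiples of that median. Of 9 monocyte markers 7 lay above the array median on average, among them LYZ, CSF1R, SPI1 and CD14, while FCGR1A and CD163 lay below it. CD14 averaged only 0.923 in vehicle at 40 h and 1.80 in vehicle at 16 h, against 48.3 with RA plus TNF. Of 8 lymphocyte markers 2 lay above the array median (NKG7 and CD79A), with CD3D, CD3E, CD3G and MS4A1 below. In such bulk samples fewer cells of a type and less RNA per cell cannot be told apart.

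Integrins are receptors for matrix and for other cells, each made of an alpha and a beta chain that must pair to reach the surface. The beta 2 chain, encoded by ITGB2, is found on leukocytes, where with alpha L it forms LFA-1, with alpha M the complement receptor Mac-1, and with alpha X another complement receptor. The beta 1 chain pairs with many alpha chains, giving receptors for collagen (alpha 1), fibronectin (alpha 5), laminin (alpha 6) and, with alpha 4, for VCAM1 and fibronectin. Alpha 4 also pairs with beta 7 to bind MAdCAM1 on gut vessels. RA acts through nuclear receptors on DNA, and TNF through receptors that turn on NF-kB and AP-1.

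Start-site sequences are shown for the 3 members on which the results below turn, ITGA1, ITGA6 and ITGAM, from RefSeq on GRCh38.p14, plus strand, from 250 bases before to 50 bases after the start. Capitals mark matches to the motifs searched on both strands: GGGNNNTTCC for NF-kB, TGANTCA for AP-1, GAGGAA for PU.1, AGGTCA and GGGTCA as half-sites of nuclear receptors, and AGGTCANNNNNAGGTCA as the direct repeat bound by RA receptors. RefSeq entries were found for 7 of the 10 genes, in 9 windows. On the same assembly ITGAL (chr16:30472742-30523185), ITGAM (chr16:31259975-31332877) and ITGAX (chr16:31355176-31382999) lie on chromosome 16, ITGA4 (chr2:181457205-181538940) and ITGA6 (chr2:172427336-172506459) on chromosome 2, and ITGA5 (chr12:54395261-54419266) and ITGB7 (chr12:53191323-53207251) on chromosome 12. ITGA1 (chr5:52787916-52959209), ITGB1 (chr10:32900318-32958230) and ITGB2 (chr21:44885953-44928815) lie apart from these.
ITGA1, chr5:52787666-52787965: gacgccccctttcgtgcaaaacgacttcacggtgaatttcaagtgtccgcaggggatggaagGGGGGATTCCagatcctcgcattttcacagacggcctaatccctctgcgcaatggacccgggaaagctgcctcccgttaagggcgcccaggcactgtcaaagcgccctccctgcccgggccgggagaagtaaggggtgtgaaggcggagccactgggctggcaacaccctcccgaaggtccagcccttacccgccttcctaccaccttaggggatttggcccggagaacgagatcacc
ITGA6, chr2:172427086-172427385: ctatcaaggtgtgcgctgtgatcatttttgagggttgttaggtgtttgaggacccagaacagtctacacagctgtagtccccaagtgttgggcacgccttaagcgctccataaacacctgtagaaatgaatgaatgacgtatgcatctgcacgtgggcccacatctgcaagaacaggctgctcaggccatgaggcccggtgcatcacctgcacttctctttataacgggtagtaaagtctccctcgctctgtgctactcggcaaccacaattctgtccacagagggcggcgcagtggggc
ITGAM, chr16:31259725-31260024: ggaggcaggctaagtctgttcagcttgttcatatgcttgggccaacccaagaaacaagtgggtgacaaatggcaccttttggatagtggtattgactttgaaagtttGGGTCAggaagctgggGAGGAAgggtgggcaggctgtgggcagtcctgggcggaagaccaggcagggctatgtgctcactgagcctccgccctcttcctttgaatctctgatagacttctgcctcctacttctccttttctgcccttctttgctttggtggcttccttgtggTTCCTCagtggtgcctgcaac
The ITGA1 window held 1 NF-kB match, starting at -188 from the start, and 6.52% of 34796 promoter windows hold that motif. The ITGAM window held GGGTCA at -143, a half-site found in 14.1% of windows, and PU.1 matches at -127 and +30 (27.9% of windows). None of the 6 motifs was found in the ITGA6 window shown. Of the members not shown, ITGA5 held NF-kB matches at -224 and -82 and an AP-1 match at -6 (7.73% of windows), ITGA4 a GGGTCA at -247, ITGB1 a PU.1 match at -184 and ITGB7 PU.1 matches at -28 and +25. AGGTCA (13.8% of windows) and the full repeat (0.00575%) were found in none of these windows. A match is a stretch of letters and says nothing about binding.

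RA for 40 h was compared with vehicle to see which chains changed under RA alone. The transcripts of 6 of the 10 subunits rose and none fell: ITGA6, ITGAL, ITGAM, ITGB7, ITGAX and ITGB2. Over all genes tested 2.64% were called higher (limma, Benjamini-Hochberg adjusted p under 0.05 over all probe sets tested) and 1.23% lower. The median log2 change of the 10 subunits was 1.10, beside -0.0031 over all genes. Of the monocyte markers CD14 (log2 1.82, adjusted p = 0.0128) and CSF1R rose as well, with a summed level of the 9 markers of 180 to 423 with RA and 182 to 347 in vehicle, and their part in these results was not tested.

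**Figure D1:**
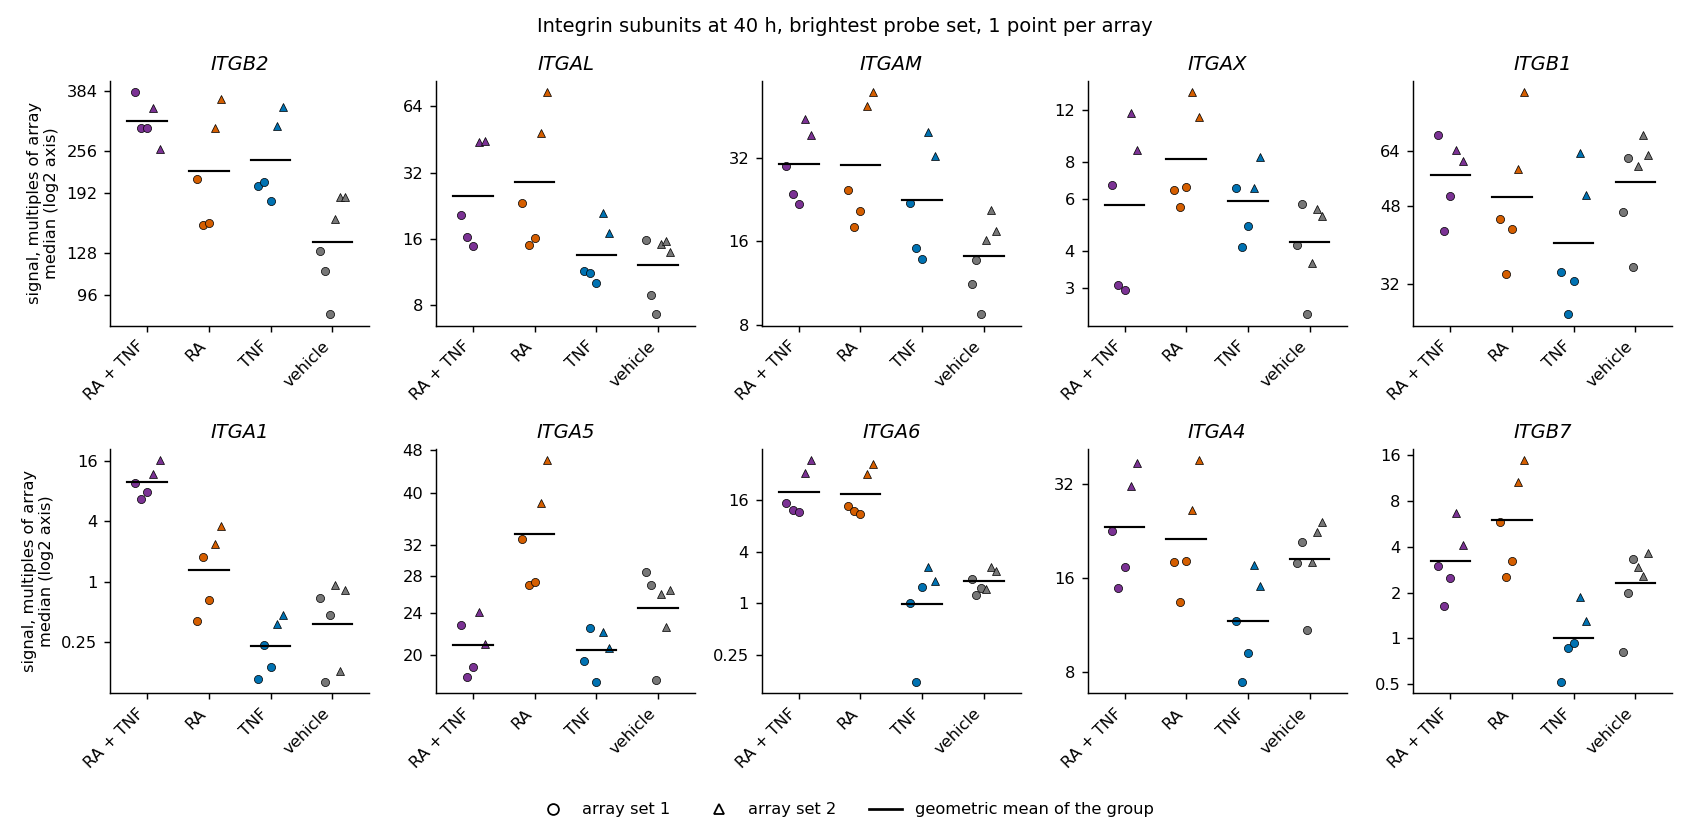
Level of each subunit in every 40 h array, in multiples of the array median on a log axis, with RA plus TNF, RA and TNF left of vehicle. Circles are array set 1, triangles array set 2, and bars are geometric means. ITGA6 with RA lies above all vehicle arrays, and ITGA1 with RA plus TNF lies above every other array.

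ITGB2, the shared chain of the leukocyte integrins, was at 211, 155 and 157 times the array median with RA in array set 1 and at 362 and 299 in set 2. In the 6 vehicle arrays it ran from 84.4 through a median of 145 to 187. The RA arrays of set 2 stood above all vehicle arrays and those of set 1 partly overlapped them. The rise was 1.68-fold (log2 0.75 ± 0.17 SE, limma adjusted p = 0.00713), at 0.68 in set 1 and 0.89 in set 2.

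ITGAL, the alpha chain of LFA-1, was at 23.2, 15.0 and 16.1 with RA in set 1 and at 74.4 and 48.5 in set 2, against 7.22, 14.5 and 15.7 as the lowest, median and highest vehicle value. All but 1 RA array lay above the vehicle range, and the 2 arrays of set 2 were far higher than the others. Its rise of 2.56-fold (log2 1.36 ± 0.21, adjusted p = 2.66e-05) was 0.83 in set 1 and 2.02 in set 2. ITGAM, the alpha chain of Mac-1, was at 24.5, 17.9 and 20.6 with RA in set 1 and at 55.2 and 49.3 in set 2, against 8.70, 15.0 and 20.7 in vehicle. It rose 2.28-fold (log2 1.19 ± 0.17, adjusted p = 5.86e-06), by 0.92 in set 1 and 1.53 in set 2. ITGAX, the alpha X chain, averaged 8.72 ± 3.59 with RA and 4.47 ± 1.29 in vehicle (SD, n = 5 and 6) and rose 2.01-fold (log2 1.01 ± 0.25, adjusted p = 0.0132). Without RA replicate 4 the adjusted p of ITGAX was 0.0651, and its change was 0.67 in set 1 and 1.40 in set 2.

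ITGA6, the laminin receptor chain, moved most of the 10 among those above the array median in vehicle. It was at 13.9, 11.9 and 11.1 with RA in set 1 and at 42.2 and 32.6 in set 2, against 1.26, 1.72 and 2.65 as the lowest, median and highest in vehicle. All 5 RA arrays lay above all 6 vehicle arrays, which 1.36% of all genes also showed in that direction. The rise was 11.6-fold (log2 3.54 ± 0.39, adjusted p = 5.88e-08), at 2.99 in set 1 and 4.14 in set 2. ITGB7, a partner of alpha 4, was at 5.86, 2.53 and 3.20 with RA in set 1 and at 14.9 and 10.7 in set 2, against 0.817, 2.75 and 3.65 in vehicle. It rose 2.81-fold (log2 1.49 ± 0.33, adjusted p = 0.00417), by 1.04 in set 1 and 2.07 in set 2, and its set 1 arrays overlapped vehicle.

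The remaining 4 chains were not called under RA. ITGB1, the common beta 1 chain, averaged 53.4 ± 20.8 with RA and 55.8 ± 12.7 in vehicle, a log2 change of -0.05 with a 95% interval from -0.39 to 0.29. ITGA4 averaged 22.9 ± 9.76 with RA and 19.0 ± 4.67 in vehicle (log2 0.29, interval -0.08 to 0.65). The fibronectin receptor chain ITGA5 had a log2 change of 0.48 ± 0.15 (adjusted p = 0.072), and it was called when signals were put back on the array software's own scale (adjusted p = 0.0098). ITGA1, the collagen receptor chain, lay at 0.411, 1.76 and 0.656 with RA in set 1 and at 3.56 and 2.35 in set 2, against 0.100 to 0.927 in vehicle. Its log2 change of 1.89 ± 0.59 had an adjusted p of 0.0744.

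The log2 change with RA in array set 2 minus that in set 1 had a median of 0.23 over all probe sets, a comparison chosen after seeing the data. For 9 of the 10 subunits the difference was above that median, from 0.38 for ITGB1 to 1.35 for ITGA1, and for ITGB2 it was 0.21 (-0.02 on the array software's scale). ITGAL, with 1.19 ± 0.36, had the smallest p of the 10 (limma adjusted p = 0.358). None of the 10 was called in it, 1 had an unadjusted p under 0.05, none was called on the array software's scale, and 0.0923% of all probe sets were called (0.105% on that scale). Both percentages are for adjusted p, and the share of probe sets with an unadjusted p under 0.05 was not counted. Within both sets, all RA arrays lay above all vehicle arrays of the same set for ITGA6, ITGB2 and ITGAM, which 2.46% of all genes also showed.

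**Figure D2:**
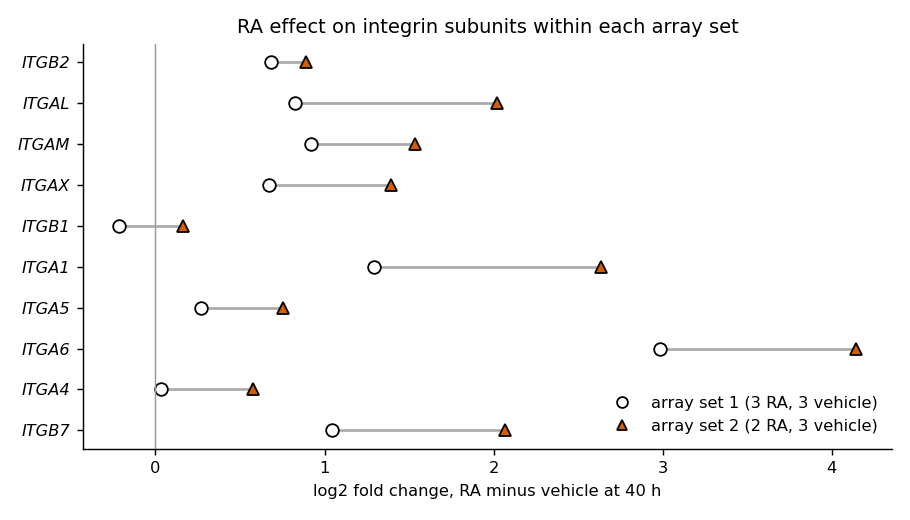
Log2 change of each subunit with RA against vehicle at 40 h, a row per subunit, with array set 1 as a circle (3 RA and 3 vehicle arrays) and array set 2 as a triangle (2 and 3). ITGAL lies at 0.83 in set 1 and 2.02 in set 2, and ITGA6 at 2.99 and 4.14.

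The time course asked how early each chain moved after RA (2 to 3 wells per time against 8 vehicle wells). No vehicle well was harvested at 2 h or 6 h, so at these times RA and harvest time cannot be told apart. ITGA6 was called higher from 2 h on, and ITGAL from 6 h on, though both ITGAL arrays at 2 h also lay above vehicle. ITGA5 was called at 2 h, 6 h and 40 h, ITGAM and ITGB7 from 6 h on, and ITGAX at 16 h and 40 h. The calls of ITGA5 at 2 h and of ITGAM and ITGB7 at 6 h were lost on the array software's scale. With so few wells, the time of a first call does not date the first change. The arrays at 2 h and 6 h had low medians, and the median change over all probe sets was 0.34 after 2 h, 0.39 after 6 h, -0.17 after 16 h and 0.14 after 40 h. Changes below are therefore log2 values relative to that median, while adjusted p-values come from the fit to the values as deposited.

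**Figure D3:**
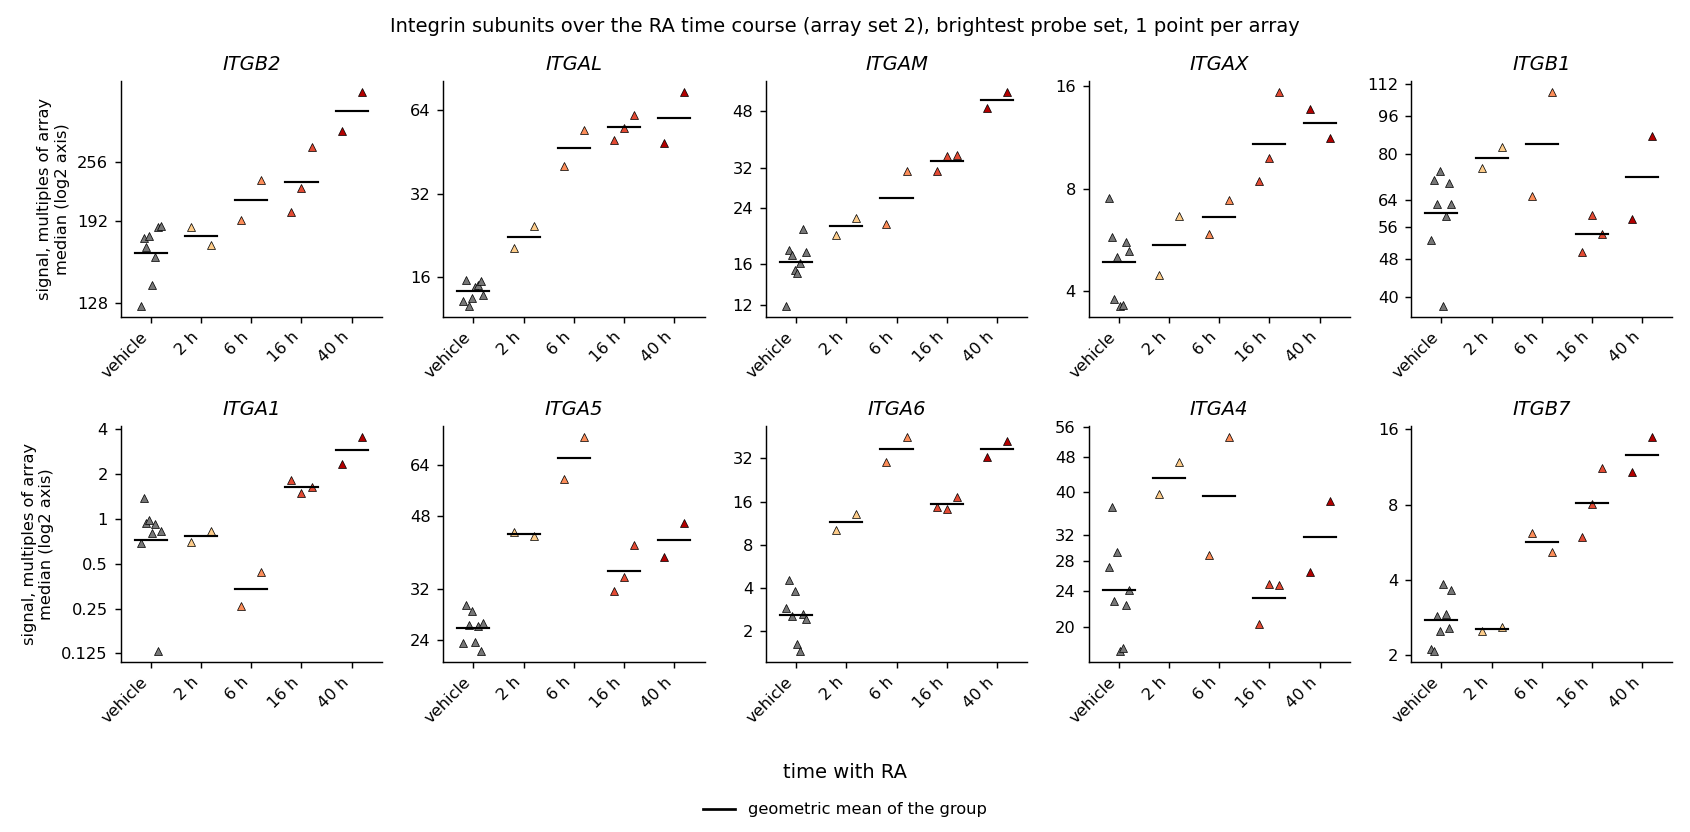
Level of each subunit in every array of array set 2, in multiples of the array median on a log axis, in vehicle and after 2, 6, 16 and 40 h of RA. ITGA6 lies above all vehicle arrays at every time, whereas ITGB1 and ITGA4 overlap vehicle at 16 and 40 h.

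ITGA6 ran from 1.45 through a median of 2.60 to 4.52 times the array median in vehicle, and was at 13.2 and 10.2 at 2 h, 45.2 and 30.3 at 6 h, 17.3, 14.8 and 14.3 at 16 h, and 42.2 and 32.6 at 40 h. Every RA array at every time lay above all 8 vehicle arrays. Relative to the median change, ITGA6 was higher by 1.83 after 2 h (limma adjusted p = 8.99e-05), 3.46 after 6 h (7.47e-10), 2.75 after 16 h (7.29e-08) and 3.70 after 40 h (6.5e-10). Of all genes, 18.8% lay above vehicle in every array at 2 h and 17.8% at 6 h. At 2 h, 2 of the 10 subunits were called higher, ITGA6 and ITGA5, and 0.76% of all genes were. The call of ITGA5 at 2 h (0.42, adjusted p = 0.0327) was lost on the array software's scale and in 6 of 10 fits that left out 1 array.

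At 6 h 5 subunits were called higher (ITGA6, ITGA5, ITGAL, ITGAM and ITGB7), against 6.69% of all genes. ITGAL ran from 12.6 to 15.6 in vehicle, and was at 24.4 and 20.4 at 2 h, 54.0 and 40.2 at 6 h, 61.6, 50.0 and 55.3 at 16 h and 74.4 and 48.5 at 40 h. All RA arrays at every time thus lay above vehicle, and the changes of ITGAL relative to the median were 0.31 after 2 h (adjusted p = 0.138), 1.32 after 6 h (4.33e-07), 2.13 after 16 h (2.01e-09) and 1.93 after 40 h (1.04e-08). ITGA5 was at 74.7 and 59.2 at 6 h, against 22.6 to 29.1 in vehicle, a relative change of 0.99 (adjusted p = 4.84e-06). Its other arrays, 42.9 and 44.0 at 2 h, 40.8, 31.6 and 34.1 at 16 h, and 46.1 and 38.3 at 40 h, were lower than at 6 h but still above vehicle. The calls of ITGAM (0.28, adjusted p = 0.0418) and ITGB7 (0.64, adjusted p = 0.0256) at 6 h were lost on the array software's scale.

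At 16 h 5 subunits were called higher, ITGA6, ITGAL, ITGAM, ITGAX and ITGB7, against 2.25% of all genes. ITGAM ran from 11.9 to 20.7 in vehicle, and was at 22.3 and 19.8 at 2 h, 31.3 and 21.3 at 6 h, 35.0, 31.2 and 34.8 at 16 h, and 55.2 and 49.3 at 40 h. It overlapped vehicle at 2 h and lay above it from 6 h on, with relative changes of 1.22 at 16 h (adjusted p = 0.000164) and 1.54 at 40 h (8.69e-07). ITGAX ran from 3.62 to 7.48 in vehicle, and was at 6.64 and 4.46 at 2 h, 7.40 and 5.90 at 6 h, 15.4, 8.44 and 9.82 at 16 h, and 11.3 and 13.7 at 40 h. It overlapped vehicle at 2 h and 6 h and was above it at 16 h (1.33, adjusted p = 0.0025) and 40 h (1.21, adjusted p = 0.00195). ITGB7 ran from 2.08 to 3.87 in vehicle, and was at 2.59 and 2.51 at 2 h, 5.19 and 6.13 at 6 h, 11.2, 5.92 and 8.01 at 16 h, and 14.9 and 10.7 at 40 h. Its arrays from 6 h on lay above vehicle, and its relative changes were 1.73 at 16 h (adjusted p = 8.16e-05) and 2.05 at 40 h (3.13e-06).

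At 40 h 7 subunits were called higher, the 5 of 16 h with ITGB2 and ITGA5, against 4.05% of all genes. ITGB2 ran from 127 to 187 in vehicle, and was at 170.3 and 186 at 2 h, 234 and 193 at 6 h, 276, 200.4 and 226 at 16 h, and 362 and 299 at 40 h. Its relative change was -0.22 after 2 h, -0.02 after 6 h, 0.67 after 16 h (adjusted p = 0.0741) and 0.86 after 40 h (0.00118). On the array software's scale ITGB2 was called higher at 16 h already (0.64, limma adjusted p = 0.000795), as was ITGA5 (0.60, 0.000207). The 40 h calls of ITGB2 and ITGA5 were lost without RA replicate 5 and that of ITGAX without RA replicate 4, which leaves 1 well at that time. At 16 h and at 40 h, 8 of the 10 subunits had every RA array above every vehicle array, against 3.05% of all genes at 16 h and 9.99% at 40 h. The exceptions were ITGB1, at 54.2, 49.6 and 59.5 at 16 h against 38.3 to 73.6 in vehicle, and ITGA4, at 24.8, 20.3 and 25.0 against 17.7 to 37.0. ITGA1 was not called at any time, with 0.130 to 1.38 in vehicle, 0.833 and 0.701 at 2 h, 0.439 and 0.262 at 6 h, 1.64, 1.82 and 1.49 at 16 h, and 3.56 and 2.35 at 40 h.

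Consecutive RA times were also compared, a choice made after seeing the data. On the deposited values 16 h was lower than 6 h for ITGA6 (log2 -1.27, limma adjusted p = 0.0183) and ITGA5 (-0.92, 0.0082), where 20.9% of all probe sets were called and the median change was -0.56. On the array software's scale neither was called, and there 16 h was higher than 6 h for ITGAL (0.80, 0.0112), ITGB2 (0.68, 0.0375), ITGAM (0.93, 0.00604) and ITGAX (1.27, 0.0308), the 4 beta 2 family genes among the 10, where 1.04% of probe sets were called. On that scale 6 h was higher than 2 h for ITGAL (0.98, 0.0057) and ITGA6 (1.59, 0.0163), where 0.2% were called. On the deposited values limma called 0 members between 6 h and 2 h (4 had an unadjusted p under 0.05, and 0.0697% of probe sets were called) and 0 between 40 h and 16 h (3 had, and 0.00436% were called). These percentages are for adjusted p, and the share of probe sets with an unadjusted p under 0.05 was not counted.

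TNF alone for 24 h was compared with vehicle. ITGB2 and ITGAM rose, ITGB7 and ITGA4 fell, and the other 6 subunits were not called, where 6.07% of all genes were called higher and 4.24% lower. ITGB2 was at 202, 207 and 182 with TNF in array set 1 and at 343 and 303 in set 2, against 84.4 to 187 in vehicle. It rose 1.81-fold (log2 0.85 ± 0.17, limma adjusted p = 0.000917), by 0.87 in set 1 and 0.86 in set 2. ITGAM was at 22.0, 15.1 and 13.7 with TNF in set 1 and at 32.5 and 39.8 in set 2, against 8.70 to 20.7 in vehicle. It rose 1.71-fold (log2 0.78 ± 0.17, adjusted p = 0.00155), by 0.59 in set 1 and 1.00 in set 2. Both genes had all TNF arrays above all vehicle arrays of the same set, which 5.84% of all genes also showed.

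ITGB7 was at 0.513, 0.869 and 0.930 with TNF in set 1 and at 1.30 and 1.87 in set 2, against 0.817, 2.75 and 3.65 as the lowest, median and highest in vehicle. It was 2.12-fold lower (log2 -1.08 ± 0.33, adjusted p = 0.0315), by -1.24 in set 1 and -0.95 in set 2. ITGA4 was at 11.7, 7.44 and 9.23 with TNF in set 1 and at 15.1 and 17.7 in set 2, against 10.9, 19.4 and 24.2 in vehicle, 1.5-fold lower (log2 -0.59 ± 0.18, adjusted p = 0.0345). Both groups overlapped for each gene. ITGB1 had a log2 change of -0.40 (adjusted p = 0.152), and was called lower on the array software's scale (-0.45, 0.00282) and after quantile normalization (-0.46, 0.000483). Leaving out 1 array ended the ITGB7 call for 5 of 11 arrays (vehicle replicates 2, 3 and 6, TNF replicates 1 and 5; adjusted p up to 0.109), and the ITGA4 call for 6 of 11 (vehicle replicates 1, 2 and 6, TNF replicates 2, 3 and 5; up to 0.114). ITGAL averaged 14.1 ± 4.62 with TNF and 12.7 ± 3.71 in vehicle, and ITGA6 1.44 ± 0.957 with TNF and 1.87 ± 0.565 in vehicle (SD, n = 5 and 6). Among cell type markers, the lymphocyte marker NKG7 (log2 1.09, adjusted p = 0.00422) and the monocyte marker CD14 (2.40, 0.000315) rose with TNF and the monocyte marker MNDA fell (-0.87, 0.000785). The summed monocyte markers ran from 164 to 316 with TNF and from 182 to 347 in vehicle, and the part of these markers in the results was not tested.

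Wells with both agents were set against wells with TNF alone, to see what RA changed in cells that had TNF. ITGA1, ITGA6, ITGB7, ITGA4 and ITGAL rose, 5 of the 10, and none fell, where 4.4% of all genes were called higher and 2.52% lower. ITGA1 was at 9.62, 6.63 and 7.74 with RA plus TNF in array set 1 and at 16.2 and 11.8 in set 2, against 0.108, 0.236 and 0.141 with TNF alone in set 1 and 0.465 and 0.376 in set 2. The 2 groups did not overlap, as 3.69% of all genes did in this direction, and TNF alone left ITGA1 below the array median in every array. The fitted log2 change was 5.43 ± 0.61 (limma adjusted p = 7.68e-08, and 2.93e-08 with every probe set kept), at 5.69 in set 1 and 5.05 in set 2. Its size is uncertain, since TNF alone lay below the array median, and the test bears on a probe set that passed the filter only through RA plus TNF.

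**Figure D4:**
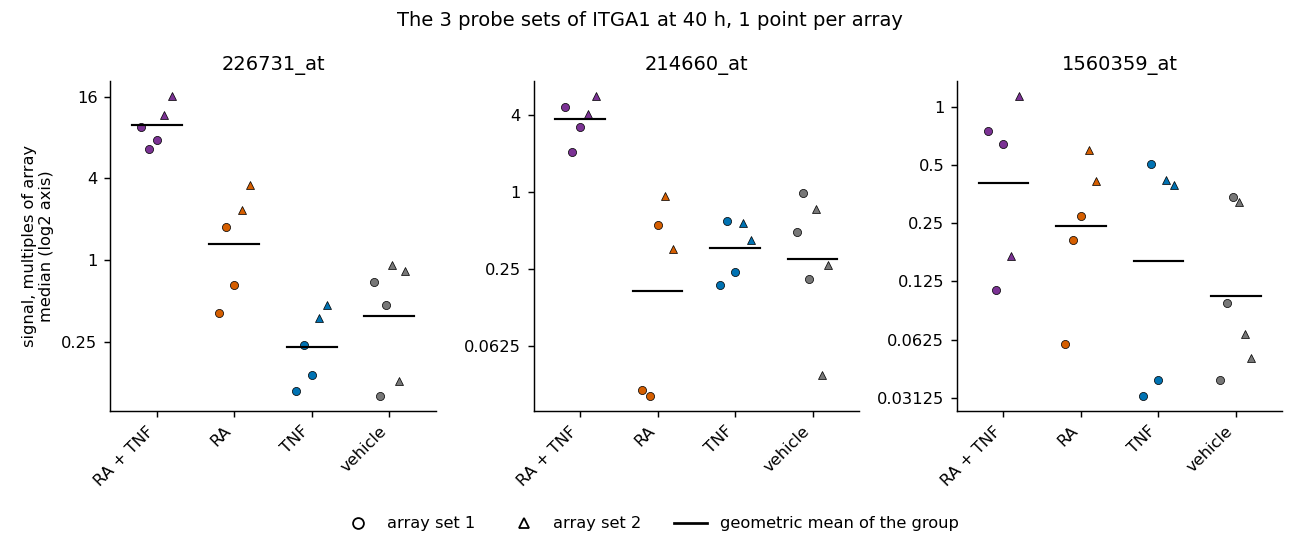
Levels of the 3 ITGA1 probe sets in every 40 h array, in multiples of the array median on a log axis. For 226731_at and 214660_at all RA plus TNF arrays lie above the other groups, and for 1560359_at the groups overlap. Both 226731_at and 214660_at passed the filter only through RA plus TNF.

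ITGA6 was at 14.9, 12.3 and 11.8 with RA plus TNF in set 1 and at 47.4 and 33.3 in set 2, against 0.997, 0.119 and 1.53 with TNF in set 1 and 1.85 and 2.68 in set 2. The groups did not overlap and the rise was 20.7-fold (log2 4.37 ± 0.40, adjusted p = 1.24e-09), at 4.52 in set 1 and 4.16 in set 2. Without TNF replicate 2, the lowest array, the log2 change was 3.72. ITGB7 averaged 3.58 ± 1.94 with RA plus TNF and 1.10 ± 0.514 with TNF (SD, n = 5 each), 3.20-fold higher (log2 1.68 ± 0.34, adjusted p = 0.00119). ITGA4 was at 22.7, 14.8 and 17.3 with RA plus TNF in set 1 and at 37.2 and 31.6 in set 2, against 11.7, 7.44 and 9.23 with TNF in set 1 and 15.1 and 17.7 in set 2. It rose 2.00-fold (log2 1.00 ± 0.19, adjusted p = 0.00047), by 0.95 in set 1 and 1.07 in set 2. ITGAL averaged 28.1 ± 15.0 with RA plus TNF and 14.1 ± 4.62 with TNF, 1.85-fold higher (log2 0.89 ± 0.22, adjusted p = 0.00766).

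Within both array sets, all RA plus TNF arrays were above all TNF arrays for these same 5 subunits, against 7.30% of all genes. The changes of ITGB2 (log2 0.38, adjusted p = 0.263), ITGAM (0.43, 0.156), ITGB1 (0.52, 0.075), ITGA5 (0.03, 0.953) and ITGAX (-0.04, 0.969) were not called. On the array software's scale ITGB1 (0.45, adjusted p = 0.00515) and ITGAM (0.37, 0.0387) were called higher, and both were also called after quantile normalization. Of the 7 monocyte markers tested, 3 also rose in this comparison and 1 was called lower. Those that rose were CD14 (log2 3.82, limma adjusted p = 3.69e-07), CSF1R and AIF1. The summed level of the 9 monocyte markers ran from 316 to 399 with RA plus TNF and from 164 to 316 with TNF, and its part in these results was not tested.

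Against vehicle, RA plus TNF raised 5 subunits, ITGA1, ITGA6, ITGB2, ITGAM and ITGAL, and none was called lower, where 11.1% of all genes were called higher and 7.03% lower. ITGB2 was at 380.0, 298 and 297 with RA plus TNF in set 1 and at 258 and 342 in set 2, against 84.4 to 187 in vehicle. It rose 2.35-fold (log2 1.23 ± 0.17, limma adjusted p = 1.74e-06), by 1.59 in set 1 and 0.74 in set 2. ITGAM was at 29.9, 23.6 and 21.8 with RA plus TNF in set 1 and at 38.6 and 44.2 in set 2, against 8.70 to 20.7 in vehicle, and rose 2.31-fold (log2 1.21 ± 0.17, adjusted p = 1.14e-06). These 2 genes, ITGA6 and ITGA1 had all RA plus TNF arrays above all vehicle arrays, which 5.85% of all genes also showed. ITGA1 was higher by log2 4.80 ± 0.59 (adjusted p = 1.34e-07), ITGA6 12.4-fold (adjusted p = 8.56e-09) and ITGAL 2.21-fold (adjusted p = 9.18e-05). The size for ITGA1 is uncertain, since it lay below the array median in vehicle and passed the filter only through RA plus TNF. ITGB7 was not called, with 3.58 ± 1.94 under RA plus TNF and 2.55 ± 1.03 in vehicle, nor was ITGA4, with 24.7 ± 9.50 under RA plus TNF and 19.0 ± 4.67 in vehicle (adjusted p = 0.123, and 0.0377 in set 2 alone). ITGA5 had a log2 change of -0.21 (adjusted p = 0.389), but was called lower on the array software's scale (-0.32, 0.0349) and after quantile normalization (-0.34, 0.0242).

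RA plus TNF was then set against RA alone, to see what TNF changed in cells that had RA. ITGA1 rose and ITGA5 fell, where 7.30% of all genes were called higher and 4.36% lower. ITGA1 in the RA plus TNF arrays, 6.63 to 16.2, lay above all RA arrays, 0.411 to 3.56, as did 3.64% of all genes. Its log2 change was 2.91 ± 0.61 (limma adjusted p = 0.00113), at 3.34 in set 1 and 2.26 in set 2, where set 2 alone gave an adjusted p of 0.116. Here too the size is uncertain, since the ITGA1 probe set passed the filter only through RA plus TNF. ITGA5 was at 22.7, 18.2 and 19.0 with RA plus TNF in set 1 and at 21.0 and 24.1 in set 2, against 32.9, 27.0 and 27.3 with RA in set 1 and 46.1 and 38.3 in set 2. The groups did not overlap (2.16% of all genes were lower in this way), and ITGA5 was 1.61-fold lower (log2 -0.69 ± 0.15, adjusted p = 0.00229), by -0.54 in set 1 and -0.90 in set 2. ITGA6 changed by 0.09 (interval -0.73 to 0.91) and ITGAM by 0.02 (interval -0.33 to 0.37).

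**Figure D5:**
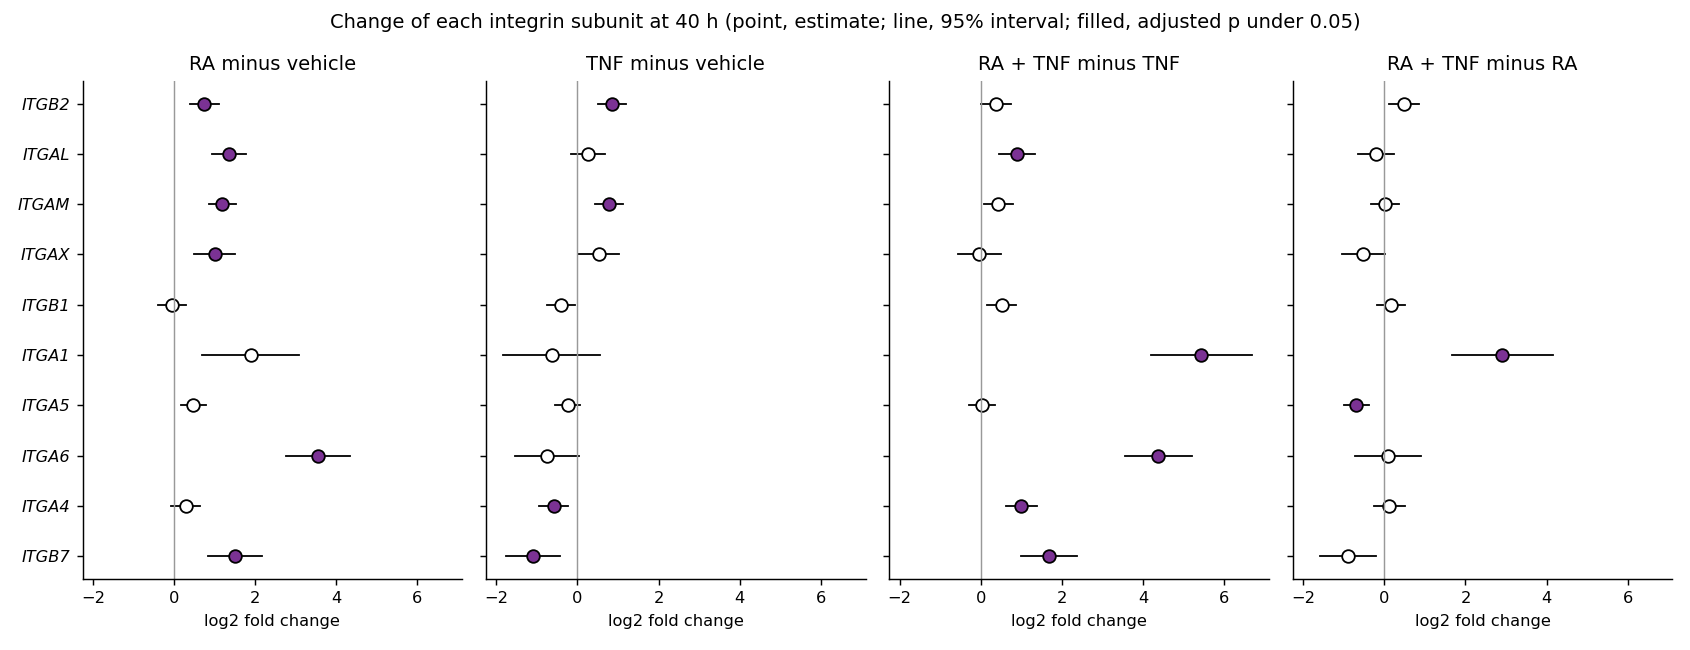
Log2 change of each subunit (point) with its 95% interval from limma (line) in 4 comparisons at 40 h: RA against vehicle, TNF against vehicle, RA plus TNF against TNF, and RA plus TNF against RA. Filled points had an adjusted p under 0.05: ITGA6 is filled with RA and with RA plus TNF against TNF, and ITGA1 in both comparisons of RA plus TNF.

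The interaction, which is the change with RA in wells that had TNF less the change in wells that had none, tested whether the treatments combined other than by addition on the log2 scale. None of the 10 subunits was called by limma, where 0.331% of all genes were called in either direction. Without adjustment 6 had a limma p under 0.05. The share of all genes at that unadjusted threshold was not counted, so the 6 cannot be weighed against it. On the array software's scale and after quantile normalization 2 subunits were called, ITGA1 and ITGAM, beside 219 and 232 of 22749 probe sets. ITGA1 had an interaction of 3.54 ± 0.85 (adjusted p = 0.0614, and 0.046 on the array software's scale), and was called without vehicle replicate 2 or 5. The ITGA1 probe set passed the filter only through RA plus TNF, so this size is uncertain as well. ITGAM had -0.76 ± 0.24 (adjusted p = 0.261, and 0.009 on the array software's scale), where its log2 change with RA was 0.43 with TNF (not called) and 1.19 without TNF.

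Array set 2 holds all 8 groups, and within it the mean level of ITGA1 was highest with RA plus TNF (14.0), followed by RA at 40 h (2.95) and RA at 16 h (1.65), each separate from the next. Below these, vehicle at 16 h, RA at 2 h, vehicle at 40 h, TNF and RA at 6 h overlapped their neighbours. ITGA6 was highest in RA plus TNF (40.3), RA at 6 h (37.8) and RA at 40 h (37.4), whose arrays overlapped. RA at 16 h (15.5) and RA at 2 h (11.7) were separate from these and from each other, and vehicle at 16 h (3.08), TNF (2.27) and vehicle at 40 h (2.17) overlapped at the low end. ITGAM was highest with RA at 40 h (52.2), separate from RA plus TNF (41.4), and each group below overlapped its neighbour down to vehicle at 16 h (15.4). Groups had 2 to 5 arrays in this set, and this order was chosen after seeing the data. The share of all genes with groups separate in this way was not counted, so these separations cannot be weighed against it. The ITGA1 probe set passed the filter of the 40 h groups only through RA plus TNF.

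Other genes that integrins work with were counted in lists. The shares of all genes called to set beside these counts are 2.64% higher and 1.23% lower with RA, 6.07% and 4.24% with TNF, and 4.4% and 2.52% with RA plus TNF against TNF. Of 16 matrix and cell-surface ligands tested, RA raised 2, THBS1, a matrix glycoprotein (log2 4.76, limma adjusted p = 3.9e-05), and ICAM1, the ligand of LFA-1 and Mac-1 (1.69, 0.00438), and lowered none. TNF raised 3 and lowered 1, with ICAM1 up by 4.84 (adjusted p = 2.54e-11). ICAM1 stood at 42.3 ± 18.5 with RA plus TNF, 17.6 ± 5.48 with TNF, 2.10 ± 0.974 with RA and 0.891 ± 0.732 in vehicle (SD, n = 5, 5, 5 and 6). Of 25 genes of integrin activation, RA raised 2, APBB1IP, which brings talin to integrins (1.31, adjusted p = 4.44e-06), and TLN1, talin itself (0.83, 0.0275), and lowered 1. TNF raised 2 of these and lowered 2, with FERMT3, the blood-cell kindlin that binds integrin beta tails, up by 1.56 (adjusted p = 2.16e-07). With RA plus TNF against TNF, 2 ligands rose, THBS1 (5.39) and the laminin chain LAMB3 (1.65), and 1 activation gene, APBB1IP (1.40, adjusted p = 2.21e-06).

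Of 19 kinases and adaptors of integrin signalling, RA raised 2 and lowered 2, among them the SRC family kinases FGR (1.98, limma adjusted p = 2.51e-08) and FYN (-1.19). TNF raised 3 and lowered 1, with the SRC family kinase LYN at 0.55 and CAV1, the caveolin of surface pits, at -1.88, and RA plus TNF raised 3 and lowered 3 against TNF. Of 14 tetraspanins and other membrane partners, RA raised 2 and lowered 3, with the tetraspanins CD53 at 1.40 and CD9 at -1.69. TNF raised 3 of these and lowered 1, with PLAUR, the urokinase receptor, at 2.10 (adjusted p = 3.47e-09) and the tetraspanin CD37 at -0.80, and RA plus TNF raised 3 and lowered 1 against TNF, with CD53 at 1.81 (3.81e-09). Of 15 further integrin subunits 6 passed the filter of the 40 h groups, and none of them was called with RA there. In the time course 10 were tested, with 2 called higher at 6 h, 1 called lower at 16 h and none called at 2 h or 40 h. Of all genes 6.69% were called higher at 6 h, and 483 of 12507 were called lower at 16 h. ITGAV, a chain of matrix receptors, fell with TNF (-0.87, adjusted p = 0.0113), and ITGAE, another partner of beta 7, was higher with RA plus TNF than with TNF (0.70, adjusted p = 0.0103).

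The likeness of patterns was measured by Pearson's r over the 33 arrays after the mean of each array set was removed, as a description, since these arrays share treatments and scaling. Between members it was highest for ITGAM with ITGB2 (r = 0.869), the 2 chains of Mac-1, and for ITGA4 with ITGB1 (0.834), which also pair, followed by ITGAL with ITGAM (0.797) and ITGA6 with ITGAL (0.790). Other chains that pair had lower values: ITGAL with ITGB2 (0.586), ITGAX with ITGB2 (0.483) and ITGA5 with ITGB1 (0.480). Lower still were ITGA6 with ITGB1 (0.476), ITGA4 with ITGB7 (0.344) and ITGA1 with ITGB1 (0.177). The lowest of all was ITGA1 with ITGA5 (-0.130). Among 12876 genes, those most like ITGA6 were GALM (0.96), SLC5A3 (0.94) and SLA (0.93). Those most like ITGAL were POR (0.94), FAM20C (0.93) and FGR (0.93), and those most like ITGA1 were CTSB (0.82), CD36 (0.81) and SLC7A7 (0.81). For ITGAM the order was FCER1G (0.93), PTGS1 (0.90) and ALOX5AP (0.89), and for ITGB2 it was HLA-F (0.96), HLA-B (0.91) and FCER1G (0.91).

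Other probe sets of the same genes were compared with the brightest where they passed the filter. The second ITGA6 probe set, 215177_s_at, rose by log2 5.04 with RA at 40 h (limma adjusted p = 1.84e-10) and correlated with the first at r = 0.893 over the 33 arrays. The second ITGAL probe set, 213475_s_at, rose by 1.36 with RA (adjusted p = 0.000213). With RA plus TNF against TNF it was not called (0.65, limma adjusted p = 0.171 with every probe set kept), unlike the brightest. ITGB2 1555349_a_at rose by 0.89 with RA (adjusted p = 0.00142). ITGB2 1555349_a_at was also higher with RA plus TNF than with RA (0.74, adjusted p = 0.00687), which the brightest ITGB2 probe set was not (0.48, adjusted p = 0.0868). For ITGA1, 214660_at averaged 3.92 ± 1.37 with RA plus TNF and 0.376 ± 0.378 with RA (SD, n = 5 each). The 2 groups did not overlap, as for 705 of 22749 probe sets in this direction. This probe set too passed the filter only through RA plus TNF, so its separation is no separate evidence for the rise. The RA arrays lay below the array median, so no size of change is given. With RA against vehicle 214660_at was not called (limma adjusted p = 0.899 with every probe set kept), and its sign was opposite to that of the brightest. ITGB1 gave a split: 1553530_a_at rose by 0.60 with RA plus TNF against vehicle (adjusted p = 0.0345), where the brightest ITGB1 probe set had 0.12 (adjusted p = 0.71). Against TNF alone, 1553530_a_at (0.80, adjusted p = 0.0142) and 1553678_a_at (0.91, 0.00944) of ITGB1 both rose with RA plus TNF. ITGA4 split as well, since 205884_at rose by 0.98 with RA plus TNF against vehicle (adjusted p = 0.000848), where the brightest had 0.41 (0.123). With every probe set kept, the ITGA4 fall with TNF was also called for 243366_s_at (-0.72, limma adjusted p = 0.00729). It was not called for 205885_s_at (-0.56, 0.145) or 205884_at (-0.14, 0.879). Over all probe sets of the 10 genes that were tested at 40 h, 20 in number, 9 were called higher with RA (2.35% of all probe sets), and 3 higher and 3 lower with TNF (5.31% and 3.25%).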

How the data were processed

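RNA of 33 wells of THP-1 cells was measured on single-channel Affymetrix arrays. Each deposited value is a log2 ratio, a probe set's signal over the median of its array. The submitters' processing notes name GCOS, Affymetrix's array software (version and settings not given in the sources used here). Powers of 2 of the distance from each array's lowest value were multiples of 0.1 units, which gave back the signals. Their medians ran from 18.9 to 45.2 units, so the centring applied a different factor to each array, and it removes any change in total RNA. The number of arrays limits the precision.

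Of 54675 probe sets, 62 controls were left out, 41091 had 1 gene symbol and were kept, and 1801 had several and 11721 none. Probe sets with a mean linear value under the median over all probe sets (0.882 for the 40 h groups, 0.891 for the time course) were removed. That left 22749 and 22961 probe sets. Counts over all genes used the brightest probe set of each gene (12398 and 12507).

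Values entered limma 3.58.1 (R 4.3.3) as deposited, with lmFit and eBayes with an intensity trend. The fit of the 40 h groups used 21 arrays with the array set as covariate (16 residual degrees of freedom), and that of the time course 17 arrays (12). P-values were adjusted by Benjamini-Hochberg over all probe sets tested, and genes were called under 0.05. The fit was tested on simulated data. Errors beside a log2 change are standard errors. The labels do not state that well numbers pair the wells, and same-numbered wells correlated only weakly (from -0.07 to 0.12). The main fit therefore did not pair wells, and a pairing is not excluded. Alternatives were quantile normalization, the recovered signals, no trend, no filter, a replicate block, no array set covariate, each array set alone and each array left out.

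The members and lists were chosen with earlier results of these data known. All 10 members are named. From the other lists, up to 3 called genes of smallest adjusted p in RA or TNF against vehicle or in RA plus TNF against TNF could be named, and for each member the 3 genes of highest correlation.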

Additional observations from a re-analysis of the deposited data

Results flagged for a closer look

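ITGA5 and ITGA6 stood out because 16 h of RA differed from 6 h of RA by a test of that difference, in comparisons chosen after seeing the data. At 16 h of RA against 6 h, ITGA6 was lower by a log2 change of -1.27 (limma adjusted p = 0.0183), and ITGA5 by -0.92 (adjusted p = 0.0082). In the same comparison 20.9% of all probe sets were called, and the median change was -0.56, which leaves -0.71 for ITGA6 and -0.36 for ITGA5 relative to it. On the array software's scale neither was called, at -0.71 for ITGA6 (adjusted p = 0.203) and -0.36 for ITGA5 (0.187). Without RA 6 h replicate 2 the change was -0.98 for ITGA6 (0.407) and -0.75 for ITGA5 (0.329), and without RA 16 h replicate 1 ITGA6 had an adjusted p of 0.0584. The cause was not tested. A rule on the gap to the next array over the range of the group marked no array in groups of 4 to 10 arrays. It was applied to 50 groups, where chance marks about 1 in 20. In the 40 h groups the rule pooled both array sets, which widens the range. ITGA6 in TNF replicate 2, the lowest of its group, was not marked. Leaving it out moved the ITGA6 change with RA plus TNF against TNF from log2 4.37 to 3.72.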

How the results depend on the processing

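Of 761 alternative values of the 41 called member changes, 685 kept their direction and call, 76 lost the call and 0 reversed. The cause was not tested where a call was lost. Under RA at 40 h 6 members were called, against 7 on the array software's scale, 7 with quantile normalization, 1 without the array set covariate, 1 in array set 1 alone, and 5 to 8 when 1 array was left out. In array set 2 alone, with 2 RA arrays, the same 6 were called, and so were ITGA1 (limma adjusted p = 0.0345) and ITGA5 (0.0241). Under TNF 4 were called, against 2 without the intensity trend, 0 without the covariate, 1 in set 1 alone, 2 in set 2 alone, 5 on each of these scales, and 2 to 4 with 1 array left out. For RA plus TNF, 5 were called against vehicle (6 on the array software's scale and 6 with quantile normalization, 5 to 7 with 1 array left out), 5 against TNF (7 on each of these scales, 2 without the covariate, 5 to 6 with 1 array left out) and 2 against RA (3 with quantile normalization, 2 to 3 with 1 array left out). The interaction called 0 members, 2 with quantile normalization, 2 on the array software's scale and 0 to 1 with 1 array left out. At 2 h 2 were called, and 1 under each of quantile normalization, the array software's scale, no trend, the replicate block and vehicle at 16 h alone, with 1 to 3 when 1 array was left out. At 6 h 5 were called, against 3 with quantile normalization, 3 on the array software's scale and 3 to 6 with 1 array left out. At 16 h 5 were called, 7 on each of these scales, 4 with the replicate block and 5 whenever 1 array was left out. At 40 h 7 were called, 6 with vehicle at 16 h alone and 5 to 7 with 1 array left out.

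The replicate block, by well number, ended the calls of ITGB7 under TNF (adjusted p = 0.0613), ITGA5 at 2 h (0.307), ITGAM at 6 h (0.0758) and ITGAX at 16 h (0.0601), and no other member's call. Whether the numbers pair the wells was not settled. Same-numbered wells of different groups correlated at 0.119 at most. In the time course the median was 0.0305 over 19 same-numbered pairs and -0.0057 over 98 differently numbered pairs. Over all probe sets, the array software's scale changed the split of calls: for RA from 534 higher and 213 lower as deposited to 754 and 610, for TNF from 1207 and 740 to 1651 and 1709, and at 6 h from 1351 and 27 to 461 and 212. RA called 747 probe sets as deposited, 1414 after quantile normalization and 324 without the covariate. Signal near the array median limits ITGA1 outside RA plus TNF, and 2 wells limit the 2 h and 6 h values.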

Other observations

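Genes most like the remaining members over the 33 arrays, after the mean of each array set was removed, were as follows, as a description of arrays that share treatments and scaling. ITGA4 was most like SPOPL (r = 0.92), OAT (0.88) and HNRNPA0 (0.88). ITGB1, its partner, was most like SURF4 (0.93), GOLGA7 (0.93) and OAT (0.91), so that OAT, a mitochondrial enzyme of ornithine breakdown, stood in both groups. ITGA5 was most like ELF4, a transcription factor (0.89), ACAT1 (0.87) and PRKD2 (0.87). ITGAX had lower values, with BHLHE40 (0.74), CD209 (0.71) and PTPRG (0.71), and ITGB7 had PLAAT4 (0.83), SEL1L3 (0.83) and UBASH3B (0.83).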
